A study of Mus musculus with 6 samples.

Results

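The growth factor and receptor tyrosine kinase genes of NOR-10 cells were examined in 3 control and 3 D-gal libraries. NOR-10 is an established line of mouse skeletal muscle fibroblasts. The D-gal group was cultured with 20 mg/mL D-galactose for 3 days to induce senescence, and the control group received PBS in its place. Both groups were grown in the same serum-containing medium, and the labels name no genetic change in either. The set was a list of 40 genes given by name, namely ligands and receptors of the FGF, PDGF, VEGF, EGF, MET, AXL, neurotrophin, angiopoietin and KIT systems with 4 feedback genes. All 40 were found among the 34745 genes of the table, 39 by symbol and 1 by Ensembl identifier, since Vegfd is listed there under its older symbol Figf. Nothing in the labels says that the libraries of a group came from separate cultures, so the p-values measure the spread between these libraries, which may be technical.

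Receptor tyrosine kinases sit in the cell membrane, pair up when a ligand binds and phosphorylate each other. Adaptor proteins then switch on RAS and the kinase cascade that ends in ERK, and ERK in turn raises Sprouty (Spry) and DUSP proteins, which dampen the same cascade. Fibroblasts of muscle both send and receive such signals. They respond to PDGF, and they make FGF7, FGF10, VEGF and HGF, which act mainly on epithelial, endothelial and muscle cells.

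Total counts were 16876087 to 20830349 in control and 13759108 to 15157064 in the D-gal libraries. The fibroblast label was checked against marker genes. Of 10 fibroblast markers, 9 passed the filter on low counts, and Fap, with 1 to 5 counts in a library, did not. Col1a1, Col1a2, Vim and Pdgfra had at least 8307 counts in each library. Under D-gal, 7 of the 9 were lower and 0 higher at an edgeR adjusted p under 0.05 (8 at an unadjusted p under 0.05). Of all genes tested, 17.8% were lower and 16.9% higher at that adjusted p. The 10 markers summed to 7360 to 7530 CPM (library counts scaled to a common total) in control and 4790 to 5120 CPM in D-gal libraries. The 5 smooth muscle and pericyte markers summed to 2160 to 2260 CPM in control and 2970 to 3280 CPM in D-gal libraries. Of these, 4 were tested, with 3 higher and 1 lower. The other marker lists were low. The myogenic markers summed to 3.08 to 3.55 CPM and 2.02 to 2.05 CPM, with Pax7, Myf5 and Myod1 at 0 counts throughout. The epithelial markers went from 7.11 to 8.59 CPM to 1.78 to 2.91 CPM, nearly all of it from Cdh1, and Epcam was at 0. The endothelial markers summed to 3.5 to 3.6 CPM and 3.17 to 5.34 CPM, and the Schwann markers to 3.24 to 4.32 CPM and 3.84 to 6.66 CPM. The part of these shifts in the results was not tested. In bulk RNA, fewer cells of a type and less RNA per cell cannot be told apart. Control replicate 1 stood apart in the 7 macrophage and leukocyte markers, which summed to 50.4 CPM there and to 8.91 to 12.3 CPM in the other 5 libraries.

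Of the 40 members, 33 passed the filter on low counts and were tested with edgeR in a fit over 13407 genes. With an adjusted p of 0.05 as the threshold, 11 members were higher and 8 were lower under D-gal, while 14 did not pass. Among all genes tested, 34.8% passed this threshold, 16.9% upwards and 17.8% downwards. None of the 33 members met the study's own rule in full, which asks for a change of 1 or more log2 units in either direction beside the same threshold and which 4.21% of all genes tested met. With an unadjusted p under 0.05, 23 members passed, and 1 of them (Fgf2) had that fold change. DESeq2 called 1 member (Areg) by both criteria, limma 1 (Fgf2), and edgeR with no filter on low counts 3 (Areg, Fgf18 and Fgf2). With the filter kept, edgeR called 2 without control replicate 3 (Vegfc and Angpt2) and 2 without D-gal replicate 3 (Fgf18 and Fgf1). The members called ran from -0.88 (Pdgfc) to 0.91 (Vegfc) on the log2 scale. The median size of the log2 fold change was 0.26 over the 33 members and 0.19 over all genes tested, and the groups did not overlap in 25 members (75.8%) against 49.1% of all genes. The plot of log2 fold changes shows that changes in both directions occurred among ligands (7 higher and 5 lower of 18 tested) and among receptors (3 higher and 3 lower of 11). The count of 8 lower members became 4 without control replicate 1, 5 without control replicate 2, 4 without control replicate 3 and 5 without D-gal replicate 3.

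**Figure D1:**
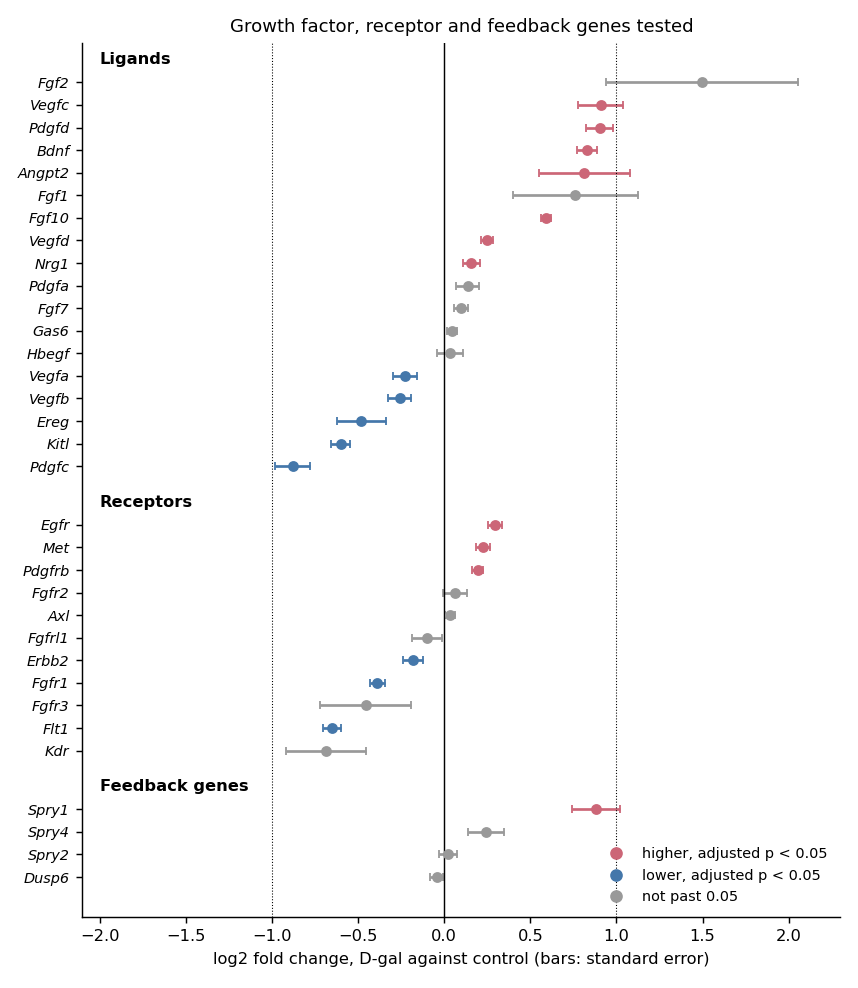
Log2 fold change (horizontal axis, D-gal against control) of the 33 members tested, by role, with bars for the standard error and dotted lines at 1 in either direction. Vegfc, Pdgfd, Spry1 and Bdnf lie furthest right and Pdgfc furthest left among the called members, while the wide bar of Fgf2 comes with a value that did not pass the test.

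**Figure D2:**
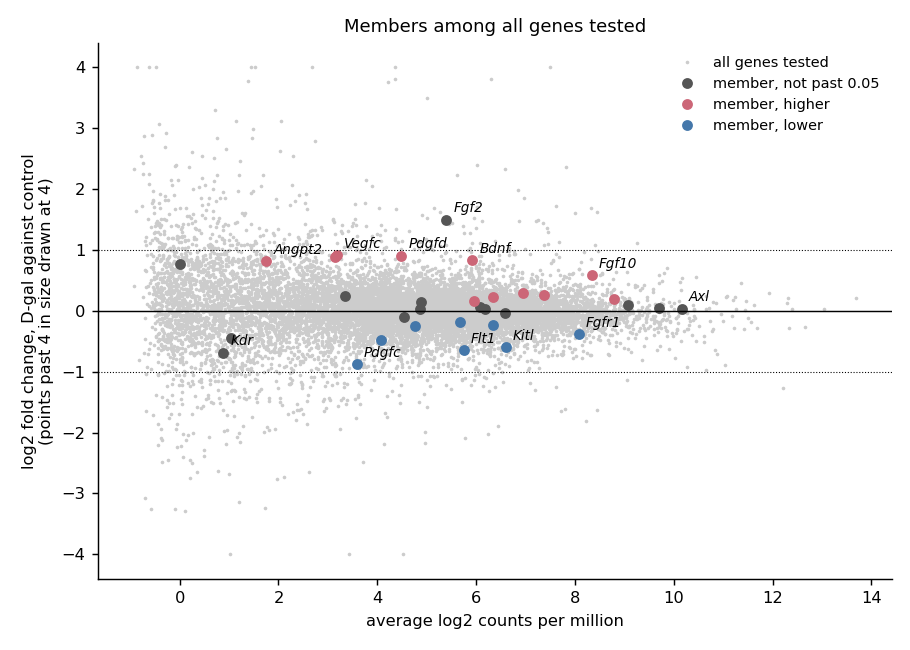
Log2 fold change (vertical axis) against the average log2 CPM (horizontal axis) of the 13407 genes tested, in grey, with the members in colour. The members lie within the cloud of other genes, and the called ones stay between the dotted lines at 1.

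Among the FGF ligands, Fgf10 rose and Fgf7 did not pass the test. FGF7 and FGF10 are made by mesenchymal cells and act through an isoform of FGFR2 found mainly on epithelial cells. Fgf10 (ENSMUSG00000021732, chromosome 13, 118669791 to 118792115, plus strand, GRCm38) had 4313, 4445 and 4273 normalized counts in control and 6657, 6520 and 6453 in the D-gal libraries. The groups did not overlap, and the spread within each was small. The log2 fold change was 0.59 (standard error 0.03, edgeR adjusted p = 1.1e-05), a rise to 1.51-fold. Leaving out any one library kept it between 0.58 and 0.61. Fgf7 was the more abundant ligand, with 8891, 8407 and 8808 normalized counts in control and 9790, 8995 and 9149 in D-gal libraries. Its D-gal values all lay above the control values, but by little, and the log2 fold change was 0.10 (standard error 0.04, 95% interval -0.01 to 0.21, edgeR adjusted p = 0.098). The Fgf10 to Fgf7 count ratio was 0.485, 0.529 and 0.485 in control and 0.68, 0.725 and 0.705 in D-gal libraries. Its level depends on the lengths of both genes, whereas its change between the groups does not.

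Fgf2, basic FGF, a potent mitogen of fibroblasts without a classical secretion signal, turned on 1 library. It lies on chromosome 3 (37348346 to 37410108). Its counts were 72, 670 and 505 in control replicates 1, 2 and 3 and 896, 984 and 891 in the D-gal libraries. After normalization these were 62.7, 547 and 510 against 1006, 1075 and 1074. Control replicate 1 was 8.07-fold below the lower of the other two control libraries, the 4th largest such gap among 13407 genes. With all libraries the log2 fold change was 1.497 (standard error 0.56) and did not pass the test (edgeR adjusted p = 0.072). Without control replicate 1 it was 0.99 and passed (edgeR adjusted p = 1.6e-04), as it also did with no filter on low counts or with limma. The D-gal values therefore lay above every control value, whichever control libraries were used, while the size of the difference depended on that library. Fgf2 shares 640 exonic bases with Nudt6 on the opposite strand and 255 with Gm43439 on its own strand. Nudt6 had 53, 44 and 37 counts in control and 45, 65 and 39 in D-gal libraries, and so did not show the same drop in control replicate 1. The counts of Gm43439 were not examined.

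The same library held the highest value of Pdgfb, which encodes the PDGF-B chain, with 18 counts against 2 and 3 in the other control libraries and 2, 0 and 2 in D-gal libraries. PDGF-B is a product of platelets, endothelial cells and macrophages. The macrophage genes Lyz2 (627, 114 and 86 counts in the control libraries) and Csf1r (141, 38 and 16) were also highest in control replicate 1. Whether these values are linked was not tested. Pdgfb was below the filter, and without control replicate 1 it was 5 counts in the control group against 4 in the D-gal group.

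**Figure D3:**
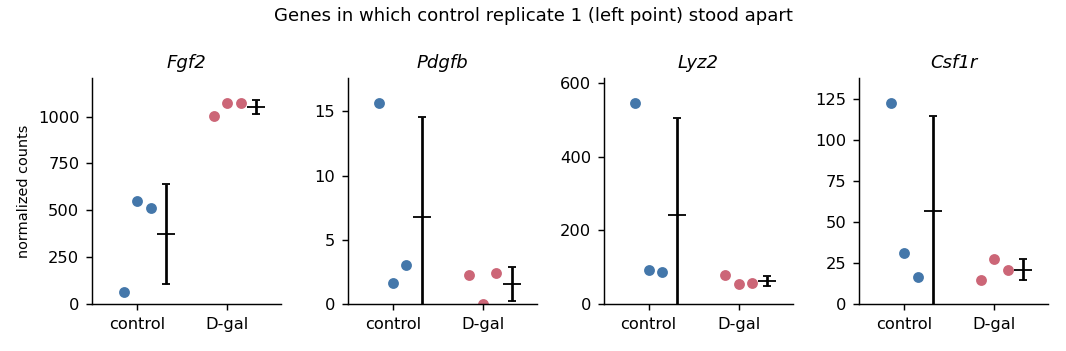
Normalized counts (vertical axes, from 0) of Fgf2, Pdgfb, Lyz2 and Csf1r in each library, with control libraries in blue, D-gal libraries in red, replicates 1, 2 and 3 from left to right, and the mean and SD in black (lower bars end at 0). In control replicate 1, Fgf2 is far below the other control libraries and the remaining 3 genes are far above them.

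The other FGF ligands were near the limit of detection. Fgf1 had 12, 14 and 12 counts in control and 23, 19 and 9 in D-gal libraries, so the groups overlapped (edgeR adjusted p = 0.14), and it passed the test only without D-gal replicate 3. Fgf18 did not pass the filter. It had 19 counts in all control libraries and 43 in all D-gal libraries, a ratio of 2.96 (95% exact Poisson interval 1.69 to 5.37, which covers counting error only). Fgf5 had 0 counts in all 6 libraries, and a total of 3 counts, the most that a count of 0 allows, would be 0.0297 CPM.

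Among the FGF receptors, Fgfr1 fell, and the others did not pass the test. FGFR1 is the main FGF receptor of mesenchymal cells. Fgfr1 (ENSMUSG00000031565, chromosome 8, 25513654 to 25575714) had 5078, 5205 and 5116 normalized counts in control and 4157, 3751 and 3859 in D-gal libraries. No D-gal value reached the control range. The log2 fold change was -0.39 (standard error 0.04, edgeR adjusted p = 3.3e-04). Fgfr2, whose groups overlapped, had 1067, 1086 and 1155 normalized counts in control and 1223, 1043 and 1188 in D-gal libraries. Its log2 fold change was 0.06 (standard error 0.07, 95% interval -0.13 to 0.25, edgeR adjusted p = 0.52). Fgfrl1, a decoy receptor without a kinase domain, changed by -0.10 (edgeR adjusted p = 0.42). Fgfr3 had 27 to 53 counts in all but D-gal replicate 2, which had 17. Fgfr4 had at most 4 counts in a library. Of the summed FPKM of these 5 genes, the per-length level deposited by the authors, Fgfr1 held 63.5% ± 0.722 in control and 57.3% ± 1.77 in D-gal libraries, and Fgfr2 18.3% ± 0.656 and 22.5% ± 0.974 (SD, n = 3). The Fgf10 to Fgfr1 count ratio went from 0.849, 0.854 and 0.835 to 1.6, 1.74 and 1.67.

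In the PDGF system, ligand genes of the same subfamily went in opposite directions. PDGF-C and PDGF-D differ from the classical PDGF chains in that a CUB domain must be cleaved off before they bind, PDGF-C chiefly to PDGFRα and PDGF-D to PDGFRβ. Pdgfd (ENSMUSG00000032006, chromosome 9, 6168612 to 6378843) had 254, 255 and 279 normalized counts in control and 496, 459 and 517 in D-gal libraries. It rose, and the log2 fold change was 0.90 (standard error 0.08, edgeR adjusted p = 1.2e-04). Pdgfc (ENSMUSG00000028019, chromosome 3, 81036416 to 81214040) had 264, 258 and 241 normalized counts in control and 129, 135 and 151 in D-gal libraries. It fell, and here the log2 fold change was -0.88 (standard error 0.10, edgeR adjusted p = 3.8e-04). The Pdgfd to Pdgfc count ratio was 0.960, 0.987 and 1.15 in control and 3.84, 3.39 and 3.43 in the D-gal libraries. This is a 3.44-fold difference, given without a test because the calls of both genes already fix its direction. On the FPKM scale, the share of Pdgfd among the 4 PDGF ligands was 33.0% ± 2.1 and 49.7% ± 2.68, and that of Pdgfc 18.1% ± 0.688 and 7.94% ± 0.559. Pdgfa, the A chain, did not pass the test (log2 fold change 0.14, edgeR adjusted p = 0.17), and it shares 813 exonic bases with a gene on the opposite strand.

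Pdgfrb, the receptor for PDGF-B and PDGF-D, rose slightly. It had 6906, 7068 and 6718 normalized counts in control and 7695, 8052 and 7931 in D-gal libraries, with no overlap. The log2 fold change was 0.19 (standard error 0.03, edgeR adjusted p = 0.0027). Its partner Pdgfra, which is no member, changed by -0.08 (edgeR adjusted p = 0.068).

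**Figure D4:**
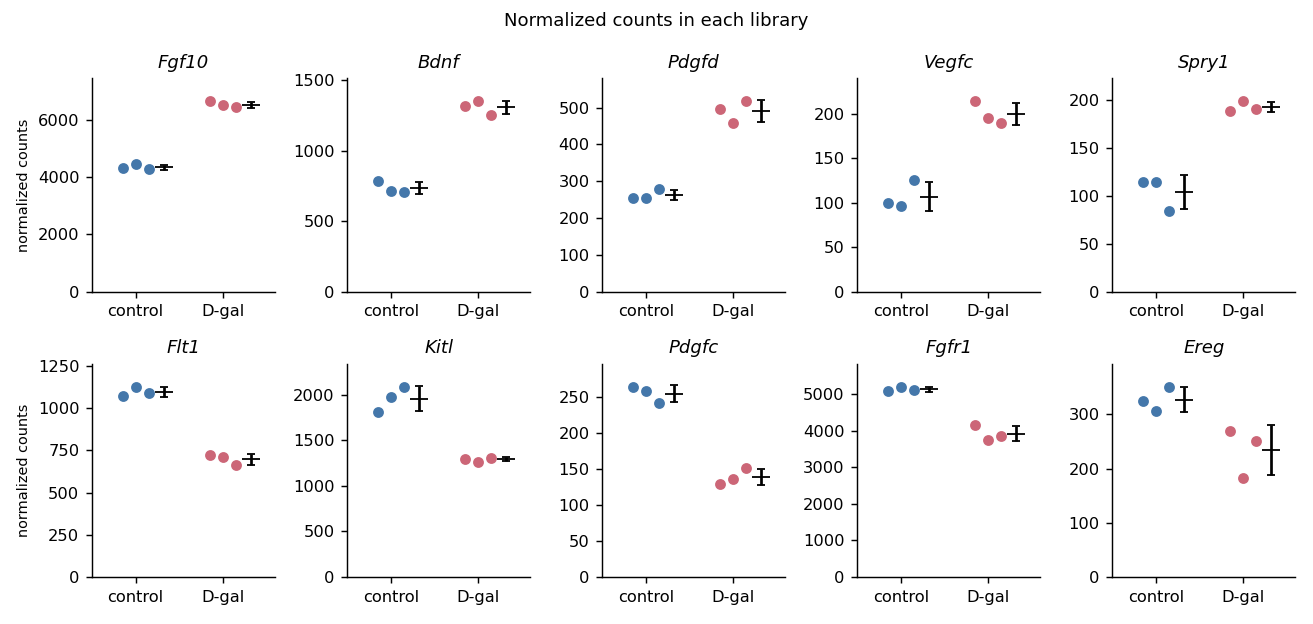
Normalized counts (vertical axes, from 0) of 10 members in each library, with the 3 control libraries in blue, the 3 D-gal libraries in red and the mean and SD in black. The upper row holds members that were higher and the lower row members that were lower under D-gal, and in none of the 10 do the groups overlap.

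All 4 VEGF ligands changed, 2 upwards and 2 downwards. VEGF-A and VEGF-B bind FLT1 (VEGFR1), VEGF-A also drives vessel growth through KDR (VEGFR2), and VEGF-C and VEGF-D act on lymphatic vessels through FLT4. Vegfc (ENSMUSG00000031520, chromosome 8, 54077532 to 54186454) had 99.3, 96.3 and 125 normalized counts in control and 214, 195 and 190.4 in D-gal libraries. Its log2 fold change was 0.91 (standard error 0.13, edgeR adjusted p = 0.0012). Vegfd had 2589, 2531 and 2466 normalized counts in control and 2977, 2982 and 3071 in D-gal libraries, a log2 fold change of 0.25 (standard error 0.03, edgeR adjusted p = 0.0011). Per length it was the leading VEGF ligand, with 68.5% ± 1.19 of the family's FPKM in control and 72.6% ± 1.24 in D-gal libraries.

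Vegfa had 1440, 1443 and 1514 normalized counts in control and 1397, 1185 and 1171 in D-gal libraries, so D-gal replicate 1 lay close to the control range. Its log2 fold change was -0.23 (standard error 0.07, edgeR adjusted p = 0.039). The call was lost without any one of control replicates 1, 2 and 3 and D-gal replicates 2 and 3 (edgeR adjusted p = 0.071 to 0.11), whereas it held without D-gal replicate 1. Vegfb had 505, 479 and 499 normalized counts in control and 405, 436 and 398 in D-gal libraries. It changed by -0.26 (standard error 0.07, edgeR adjusted p = 0.018), and the adjusted p lay between 0.022 and 0.058 with single libraries left out, above 0.05 without control replicate 1 or 3 or D-gal replicate 1 or 3. The Vegfc to Vegfa count ratio was 0.069, 0.0667 and 0.0827 in control and 0.153, 0.165 and 0.163 in D-gal libraries. It is given without a test, because the values of both genes already fix its direction.

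Of the VEGF receptors, Flt1 fell. FLT1 binds VEGF-A tightly but signals weakly, and is also made as a soluble trap. Flt1 (ENSMUSG00000029648, chromosome 5, 147561604 to 147726011, minus strand) had 1073, 1128 and 1089 normalized counts in control and 722, 712 and 662 in D-gal libraries. The groups were well apart. The log2 fold change was -0.65 (standard error 0.05, edgeR adjusted p = 8.6e-05). Kdr had 45, 37 and 35 counts in control and 23, 18 and 16 in D-gal libraries, a log2 fold change of -0.69 that did not pass the test (edgeR adjusted p = 0.052) except where the filter was at least 10 counts in every library (edgeR adjusted p = 0.038). Flt1 made up 95.5% ± 0.671 of the FPKM of the pair in control and 95.6% ± 0.591 in D-gal libraries. Both genes are best known from endothelial cells. Of the 8 endothelial markers, Cdh5, Emcn, Cldn5, Tie1 and Esam had at most 3 counts in a library and Pecam1 had 11 to 28. Vwf had 8, 15 and 15 counts in control and 18, 45 and 32 in D-gal libraries and was higher (edgeR adjusted p = 0.016). It was under the filter level in control replicate 1 and passed the filter only through the D-gal group, where it was high. Tek was lower. The part of these markers in the values of Flt1 and Kdr was not tested.

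**Figure D5:**
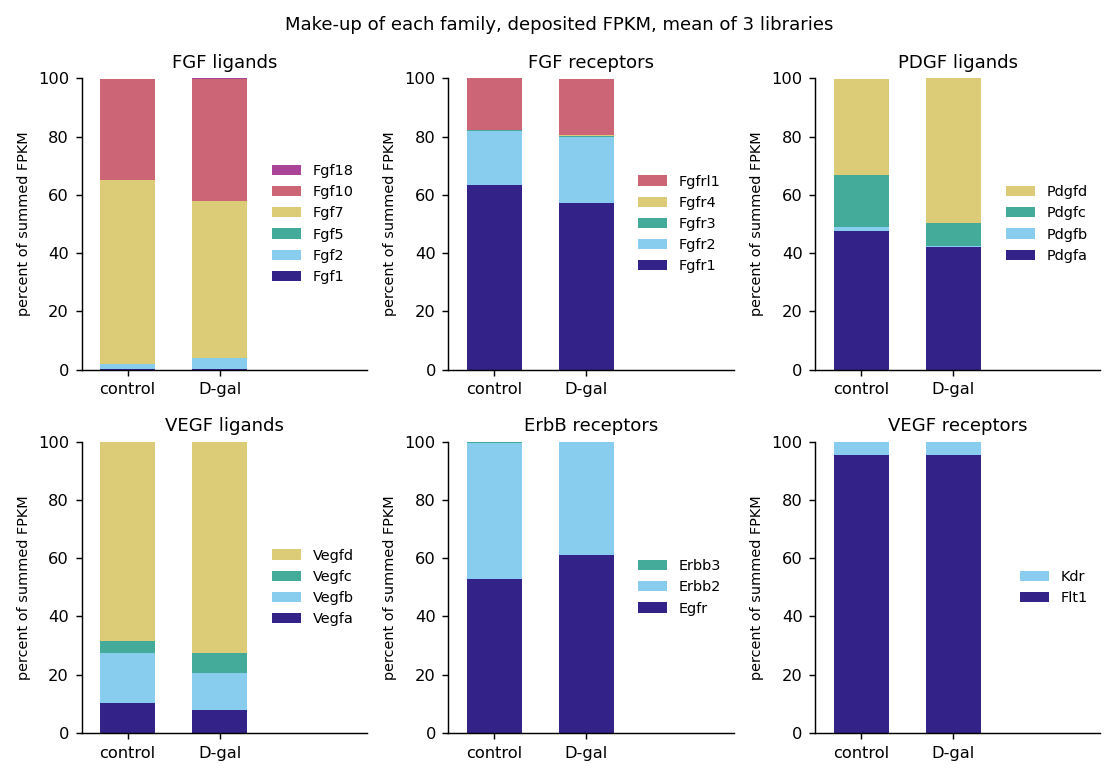
Share of each gene in the summed deposited FPKM of its family (vertical axes, percent, mean of 3 libraries) in the control and D-gal groups. Pdgfc shrinks from 18.1% to 7.94% and Pdgfd grows from 33.0% to 49.7% of the PDGF ligands, while Flt1 keeps about the same share of the VEGF receptors.

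In the EGF family, the receptors Egfr and Erbb2 went in opposite directions. ERBB2 binds no ligand itself and signals as the partner of the other ErbB receptors. Egfr had 1798, 1860 and 1896 normalized counts in control and 2205, 2337 and 2274 in D-gal libraries. It rose by 0.30 on the log2 scale (standard error 0.04, edgeR adjusted p = 8.5e-04). Erbb2 had 869, 932 and 904 normalized counts in control and 758, 785 and 841 in D-gal libraries, and its change of -0.18 passed narrowly (standard error 0.06, edgeR adjusted p = 0.043). Leaving out single libraries gave adjusted p-values of 0.031 to 0.13 for Erbb2, under 0.05 only without D-gal replicate 3. The Egfr to Erbb2 count ratio was 2.07, 2.0 and 2.1 in control and 2.91, 2.98 and 2.7 in D-gal libraries. Erbb3 had 8, 5 and 6 counts in control and 0, 1 and 3 in D-gal libraries, and was not tested.

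Among the EGF-family ligands, Ereg fell, and Areg, which lies near it on chromosome 5, was too low for the test. Epiregulin and amphiregulin are cleaved from the cell surface and bind EGFR. Ereg had 324, 306 and 351 normalized counts in control and 269, 182 and 252 in D-gal libraries, with more spread in the D-gal group. Its log2 fold change was -0.48 (standard error 0.14, edgeR adjusted p = 0.034), and the call was lost without any one of control replicates 1, 2 and 3 and D-gal replicate 3 (edgeR adjusted p = 0.053 to 0.092). Areg had 7, 18 and 7 counts in control and 0, 1 and 1 in D-gal libraries and did not pass the filter. Summed over libraries, its rate was 12.2 times higher in control (95% exact Poisson interval 3.12 to 105). With no filter it was called lower (edgeR adjusted p = 0.016), as it was by DESeq2 (adjusted p = 0.033). Hbegf did not pass the test (log2 fold change 0.03, edgeR adjusted p = 0.76). Nrg1, which acts through ERBB3 and ERBB4, had 1020, 1000 and 948 normalized counts in control and 1136, 1087 and 1086 in D-gal libraries. It changed by 0.16 (standard error 0.05, edgeR adjusted p = 0.041), and this call was lost without any one of the 6 libraries (edgeR adjusted p = 0.053 to 0.12).

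Gas6 and its receptor gene Axl were the most abundant members per length and did not pass the test. GAS6 is a vitamin K-dependent ligand that bridges AXL to phosphatidylserine on dying cells. Axl had 18834, 19158 and 18746 normalized counts in control and 19932, 19420 and 18806 in D-gal libraries. Gas6 had 13880, 13777 and 13361 in control and 13832, 13962 and 14539 in D-gal libraries. The groups overlapped in both, and the 95% intervals of the log2 fold changes were narrow, from -0.04 to 0.11 for Axl (0.04, standard error 0.03, edgeR adjusted p = 0.38) and from -0.04 to 0.13 for Gas6 (0.05, standard error 0.03, edgeR adjusted p = 0.29). The FPKM of Gas6 was 310 in control and 328 in D-gal libraries, and that of Axl 130.2 and 137.

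Met, the receptor of hepatocyte growth factor, rose by 0.23 on the log2 scale (standard error 0.04, edgeR adjusted p = 0.0031), from 1262, 1259 and 1255 to 1498, 1432 and 1488 normalized counts. Its ligand gene Hgf, which is no member, fell from 3542, 3483 and 3404 to 1512, 1318 and 1428 normalized counts, a log2 fold change of -1.29 (edgeR adjusted p = 3.9e-06). Receptor and ligand were thus on opposite sides.

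Bdnf, a neurotrophin that binds NTRK2 and is also made by muscle and stromal cells, rose. Bdnf (ENSMUSG00000048482, chromosome 2, 109674700 to 109727007) had 783, 713 and 709.9 normalized counts in control and 1316, 1351 and 1257 in D-gal libraries. The log2 fold change was 0.83 (standard error 0.06, edgeR adjusted p = 3.9e-05), or 1.78-fold. It shares 896 exonic bases with a gene on the opposite strand, and since no source states whether counting used the strand, reads of the pair cannot be told apart.

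Kitl, which encodes stem cell factor, the ligand of KIT, fell. Kitl (ENSMUSG00000019966, chromosome 10, 100015630 to 100100413) had 1810, 1975 and 2089 normalized counts in control and 1295, 1267 and 1309 in D-gal libraries. The D-gal libraries lay close together and below each control library, and the log2 fold change was -0.60 (standard error 0.06, edgeR adjusted p = 1.5e-04). The angiopoietins, ligands of the endothelial receptor TEK, were low. Angpt2 had 43, 35 and 56 counts in control and 63, 76 and 49 in D-gal libraries, a log2 fold change of 0.81 (standard error 0.26, edgeR adjusted p = 0.045) that passed with single libraries left out only without control replicate 3 (range of the adjusted p 0.015 to 0.13). Angpt1 had 7 to 16 counts in a library and was not tested.

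Of the 4 feedback genes, Spry1 rose and the others did not pass the test. Spry1 (ENSMUSG00000037211, chromosome 3, 37639947 to 37644598) had 114, 114 and 83.8 normalized counts in control and 189, 199 and 190.4 in D-gal libraries. Its log2 fold change was 0.88 (standard error 0.14, edgeR adjusted p = 0.0018), but 710 of its exonic bases overlap a gene on the opposite strand. Fgf10, Fgfr1, Pdgfc, Ereg and Nrg1 overlap such a gene too, by 123, 164, 147, 141 and 482 exonic bases. Spry2 and Dusp6, which encodes a phosphatase of ERK, were more abundant. Spry2 had 1193, 1230 and 1189 normalized counts in control and 1305, 1172 and 1189 in D-gal libraries (log2 fold change 0.02, standard error 0.05, 95% interval -0.12 to 0.17, edgeR adjusted p = 0.79). Dusp6 had 1649, 1625 and 1613 in control and 1600, 1539 and 1604 in D-gal libraries (log2 fold change -0.04, standard error 0.04, 95% interval -0.15 to 0.06, edgeR adjusted p = 0.41). Spry4 changed by 0.24 (edgeR adjusted p = 0.11).

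Promoter windows of the members were searched for 9 motifs. RefSeq windows (GRCm38.p6) were matched by symbol for 29 of the 40 members, and the 250 bases before each RefSeq start were read on both strands. The cyclic AMP response element TGACGTCA, a palindrome bound by CREB and ATF proteins, was found in 2 of the 29, Flt1 and Areg, and in 1.55% of all 32851 windows. It is shown for both as an example, picked with earlier results of these data known. In these genes the RefSeq start is also the start listed in the table. The same holds for some matches of other motifs that are not shown, such as TATAAA in the same 2 genes. The stretches of 60 bases are written 5′ to 3′ on the gene's strand with the motif in capitals, and lie at chr5:147726059-147726118 (minus strand, Flt1) and chr5:91139512-91139571 (plus, Areg).
Flt1: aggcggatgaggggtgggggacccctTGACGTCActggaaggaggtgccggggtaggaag
Areg: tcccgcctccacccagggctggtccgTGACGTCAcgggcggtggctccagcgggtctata
The motif begins 81 bases before the start in Flt1 and 61 in Areg. Flt1 was lower under D-gal, and Areg was below the filter, with fewer counts in each D-gal library than in each control library. Whether the motif has a part in these values was not tested.

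The other 8 motifs are given by their counts among the 29 members, with the percent of all 32851 windows beside them. These are unlike measures, since a member counts once if any of its windows holds the motif, and Bdnf has 7 windows. AP-1 (TGANTCA) was found in 2 members, Bdnf and Met, and in 6.75% of all windows. In both the RefSeq start lies inside the gene as listed, 2332 and 157 bases past its listed start. The hypoxia response element ACGTG was found in 5 members (16.6% of all windows) and the tonicity element TonE in 4 (4.27%). The CArG box of serum response factor was found in 1 (Pdgfc, 1.47%), the ETS motif CCGGAAGT in 1 (2.88%) and the Egr motif GCGTGGGCG in 0 (0.536%). The Sp1 motif GGGGCGGGG was found in 10 members (10.4% of all windows) and the TATA motif TATAAA in 5 (12.4% of all windows). A match describes the letters of the window and is no evidence of binding.

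The members were set beside 121 other genes of the same systems, of which 87 were tested and 39 passed the same threshold, 13 higher and 26 lower (44.8%, beside 34.8% of all genes tested). By both criteria 10 of them were differentially expressed, 2 higher and 8 lower. Of the 34 genes listed as other ligands, 14 were tested, 3 were higher and 5 lower (57.1% called). Besides Hgf, Tgfa fell (log2 fold change -1.07, edgeR adjusted p = 3.7e-04), which encodes a further EGFR ligand. Fgf14, listed there although it encodes an intracellular FGF homolog, had 0 counts in control and 15, 13 and 15 in the D-gal libraries. It passed the filter on low counts only through the D-gal group, where it was high. With the control group set at 3 counts in all, the D-gal rate would be 18.7-fold higher. That value leaves out the counting error of the D-gal group, and Fgf14 overlaps a gene on the opposite strand.

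Of the 30 other receptors and coreceptors, 19 were tested, 3 were higher and 6 lower (47.4% called, beside 34.8% of all genes tested). Both the receptor gene Ret and the coreceptor genes Gfra1 and Gfra2 of the GDNF family fell, with log2 fold changes of -1.49, -1.95 and -1.70 (edgeR adjusted p = 0.0020, 0.0014 and 0.036). Gdnf itself fell by 1.44 on the log2 scale (edgeR adjusted p = 0.0096), which was named after its values were seen. All 4 genes were low, with 22 to 103 counts in each control library and 1 to 28 in each D-gal library. The lowest of these D-gal counts are below the filter level of about 0.624 CPM. A gene with such counts passed the filter only through the control group, where it was high. The angiopoietin receptor gene Tek, with 28 to 45 counts in control and 11 to 15 in D-gal libraries, had a log2 fold change of -1.02 (edgeR adjusted p = 0.034).

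Of the 29 adaptors and kinases between receptor and ERK, 27 were tested, 4 were higher and 5 lower. This is 33.3% of those tested, close to the 34.8% of all genes tested. The called genes had log2 fold changes from -0.92 to 0.49. Shc2, which encodes an adaptor, came first by p (log2 fold change -0.92, edgeR adjusted p = 6.0e-05), followed by Braf (0.49, edgeR adjusted p = 3.7e-04). Of 28 other feedback and ERK-induced genes, 27 were tested, 3 were higher and 10 lower (48.1% called). Ier3, an early response gene, was the only one that passed both criteria, with 1480 ± 28.8 normalized counts in control and 4019 ± 378 in D-gal libraries (SD, n = 3, log2 fold change 1.44, edgeR adjusted p = 7.1e-06). The phosphatase genes Dusp5 (-0.92), Dusp4 (-0.50) and Dusp7 (-0.26) were lower, whereas Dusp1 was higher (0.94), and the ERK-induced factors Etv4 and Etv5 did not pass (edgeR adjusted p = 0.69 and 0.20), these 6 genes being named after their values were seen.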

How the data were processed

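RNA was sequenced for 3 control and 3 D-gal libraries of NOR-10 cells. Per the methods, the authors ran FastQC and Trimmomatic on the reads, and the submitters' processing notes name HISAT2 2.0.4. The counting tool, its strand setting and the annotation are not given in the sources used here. The labels and the methods name different library kits. The deposited table holds raw read counts per gene and library, and FPKM values that the authors computed from gene length and library total. Positions are those of the table, on GRCm38 as judged from GENCODE M21.

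Counts were tested with edgeR 4.0.16 (R 4.3.3; TMM, filterByExpr, quasi-likelihood test, Benjamini-Hochberg adjustment over 13407 genes), 3 libraries against 3 with no covariate. Genes of about 0.624 CPM or more in 3 libraries passed the filter. A normalized count is the count over its library's TMM-scaled size, multiplied by the mean of these sizes. Standard errors are the log2 fold change over the square root of F, and 95% intervals use 4 degrees of freedom. The test itself uses more. An interval can therefore span both signs where the unadjusted p is under 0.05, as for Fgf7 (edgeR unadjusted p = 0.042). The biological coefficient of variation was 9.47%. Replicates differed by more than sampling noise (chi-square over its degrees of freedom, 6.00 to 9.42). Alternatives were DESeq2 1.42.0, RLE factors, other filters, the replicate block, thinning to the smallest library, limma 3.58.1 on log2(FPKM + 1), a stricter threshold, single libraries left out, and FPKM over the union of annotated exons. The functions were tested on simulated data.

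The members, lists and promoter motifs were chosen with earlier results of these data known. Members called with a change of 0.5 log2 units or more in either direction, or with at least 1000 normalized counts in a group, were described by library. Of the other lists, genes past both criteria were named, at most 4 by p, and otherwise the 2 with the smallest p. A gene that this rule names is not reported here.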

Additional observations from a re-analysis of the deposited data

How the results depend on the processing

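Over 13 alternatives, the 33 members tested gave 428 comparisons with the values reported, of which 376 kept direction and side of the threshold, 42 lost the call, 6 gained it and 4 changed sign. Of the 19 members called, 13 were called at the same threshold under each of these alternatives, and Vegfa, Vegfb, Ereg, Nrg1, Erbb2 and Angpt2 were lost under some. The cause was not tested. No member was differentially expressed by both criteria, and the number became 1 with DESeq2, 3 with no filter on low counts and 1 with limma on log2(FPKM + 1), while with single libraries left out it was 0 to 2. With single libraries left out, the number of higher members was 9 to 11 and of lower members 4 to 6 (8 with all libraries), and the number of other genes of the same systems that were called was 29 to 36. The sign changes were in values near 0: Spry2 was -0.0037 in thinned counts and ranged from -0.0285 to 0.0519 with single libraries left out, and Hbegf ranged from -0.0043 to 0.0902.

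The replicate numbers share no stated origin, and deviations of same-numbered libraries correlated at -0.0137, -0.00651 and 0.0259. With the replicate number as a block, 9 members were higher and 6 lower, and Vegfa, Nrg1, Erbb2 and Angpt2 were not called. Over all genes tested, 564 were called by both criteria, and limma called 120. At an adjusted p under 0.01 no member met both criteria either. Per length, the shares within families moved by more than 1 SD in 34 of 44 values when the union of annotated exons replaced the length behind the deposited FPKM. The direction of the difference between groups was the same in 27 of 28 genes, Hbegf being the exception. Genes under about 10 counts per library are limited by depth.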
